A study of Mus musculus with 2 samples.

Results

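The neuronal splicing regulators described here are 10 genes chosen by name, Nova1, Nova2, Rbfox1, Rbfox2, Rbfox3, Ptbp1, Ptbp2, Srrm4, Khdrbs2 and Khdrbs3, among 47643 genes counted. Each gene name met 1 gene ID of the counts through the GENCODE M21 annotation of GRCm38, and all 10 had the 150 reads in at least 1 library that the study required of a gene, as did 10130 genes in all. The cells were cortical progenitors of wild-type mouse cortex at E14, labelled male, electroporated with a non-targeting control siRNA (siCtl) or with a pool of siRNAs against Phf6 (siPhf6). After 5 days of culture their mRNA was sequenced. PHF6 is a chromatin protein of the nucleus that is mutated in an X-linked intellectual disability syndrome, and the comparison asks which transcripts differ when it is depleted. The study describes replicate electroporations per group, and whether a count file pools them is not given. One count file per group was analysed here, so no difference below has a replicate check, no p-value is given, and each comparison is between these 2 libraries.

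Splicing regulators bind short RNA motifs in and beside exons and make the spliceosome include or skip them. Neurons run a splicing programme of their own. In progenitors and non-neuronal cells PTBP1 represses many neuronal exons, and its level drops as neurons are born, when its relative PTBP2 takes over. The NOVA proteins, the RBFOX proteins, SRRM4 (nSR100, which promotes neuronal microexons) and the KHDRBS proteins (SLM1, encoded by Khdrbs2, and SLM2, encoded by Khdrbs3) then set the exon choice of synaptic, cytoskeletal and channel transcripts. RBFOX3 is the antigen known as NeuN, a marker of mature neurons. Gene-level counts give the amount of each regulator's transcripts and say nothing of which exons they contain.

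Several of these genes regulate one another through short exons, and these exons are shown because they also let a reader see how far relatives can be told apart by their reads. The RNA-binding domain of the RBFOX proteins holds an exon of 93 bases, whose skipping gives a protein that lacks part of that domain. Its GRCm38 positions are chr16:7292185-7292277 on the plus strand in Rbfox1, chr15:77105577-77105669 on the minus strand in Rbfox2 and chr11:118502842-118502934 on the minus strand in Rbfox3. The sequences follow 5′ to 3′ from GENCODE M21 transcripts, with capitals at the positions where the 3 genes are not all alike.
Rbfox1: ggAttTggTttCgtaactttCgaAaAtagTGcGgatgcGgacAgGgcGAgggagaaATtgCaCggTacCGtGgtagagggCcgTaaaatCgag
Rbfox2: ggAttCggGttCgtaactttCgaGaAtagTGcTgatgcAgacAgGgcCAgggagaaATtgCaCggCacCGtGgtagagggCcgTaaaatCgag
Rbfox3: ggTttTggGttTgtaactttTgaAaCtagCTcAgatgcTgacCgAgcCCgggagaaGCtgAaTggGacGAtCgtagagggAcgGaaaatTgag

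Rbfox1 and Rbfox2 differed at 7 of the 93 positions of this exon, and each differed from Rbfox3 at 24. Even so, no stretch of 50 bases in the annotated transcripts of Rbfox1, Rbfox2 or Rbfox3 occurred in a transcript of any other gene, on either strand. The same held for Ptbp2 and Khdrbs3. Such stretches made up 0.232% of those in Srrm4, 0.479% in Khdrbs2, 3.002% in Nova1, 18.3% in Ptbp1 and 30.8% in Nova2, and none of them was shared between any of the 10 regulators.

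The exon of 34 bases that PTBP1 makes Ptbp2 transcripts skip, and its counterpart in Ptbp1 itself, follow, with capitals at the 8 positions where they differ. They lie at chr3:119724612-119724645 on the minus strand in Ptbp2 and at chr10:79862014-79862047 on the plus strand in Ptbp1. In the annotation of Ptbp2 the 3 protein-coding transcripts that reach across this place include the exon, while both transcripts marked for nonsense-mediated decay that reach across it lack it. Ptbp1 has the same numbers, 3 with the exon and 2 decay transcripts without it. Which form the reads came from cannot be seen in counts per gene.
Ptbp2: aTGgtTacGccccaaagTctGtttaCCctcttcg
Ptbp1: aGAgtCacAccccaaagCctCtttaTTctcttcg

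The libraries held 12155311 (siCtl) and 10561757 (siPhf6) reads in genes, and values below are reads per 1000000 gene reads (RPM). The Phf6 transcript itself was at 117 RPM in siCtl and 29.4 RPM in siPhf6 (1420 and 310 reads), which is 25.2% of the control level. The labels call the cells progenitors. In both libraries the summed markers of postmitotic neurons stood several times above those of radial glia, and further above those of dividing cells. The lists hold different genes, and the sums are not scaled for transcript length. The 10 markers of postmitotic neurons summed to 3260 RPM in siCtl and 3341 RPM in siPhf6, with a median log2 ratio of 0.06. Of these, 1 was past the fold limit used below, Syt1 at -0.28, against 15.3% of all kept genes that were lower. Map2, the one with most reads, stood at 0.17 (0.13 to 0.21). The 10 radial glia markers summed to 554 and 720 RPM, with 6 kept by the filter and 4 of these higher in siPhf6 (Nes 0.77, Slc1a3 0.71, Fabp7 0.47 and Vim 0.28), against 15.9% of all kept genes. Of the other kept radial glia markers, Ptprz1, the one with most reads, stood at 0.22 and Sox2 at -0.22, both within the limit. The 8 markers of dividing cells summed to 44.7 and 85.8 RPM, and all 3 kept ones were higher (Mki67 1.26, Top2a 1.21, Mcm2 0.74). Each of these 3 passed the filter only through siPhf6, so the filter favoured this count. Mki67 had 120 reads in siCtl and 250 in siPhf6, Top2a 136 and 275, and Mcm2 146 and 213. The dividing-cell markers that were not kept all had counting intervals that included no difference. In bulk RNA, fewer cells of a type and less RNA per cell cannot be told apart, and the part of cell make-up in the differences below was not tested.

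Per kilobase of exons, pooled over all annotated transcripts of a gene, Rbfox2 and Rbfox1 were the most abundant of the 10 genes in both libraries. In siCtl, Rbfox2 stood at 55.1 and Rbfox1 at 48.5 RPM per kilobase of annotated exons. Khdrbs3 followed at 34.8 and Srrm4 at 26.3 on the same scale, then Ptbp2 at 19.3, Rbfox3 at 17.7, Nova2 at 15.6 and Ptbp1 at 14.1. Khdrbs2 (3.69) and Nova1 (1.81) were lowest, so the less abundant relative in the Khdrbs and Nova families was far below its partner. In siPhf6 the order was the same except that Ptbp1 (14.3) stood above Nova2 (13.5). In siCtl the 95% Poisson intervals of 2 pairs of neighbours in this order overlapped, Ptbp2 with Rbfox3 and Nova2 with Ptbp1, and in siPhf6 only those of Ptbp1 and Nova2 did.

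**Figure D1:**
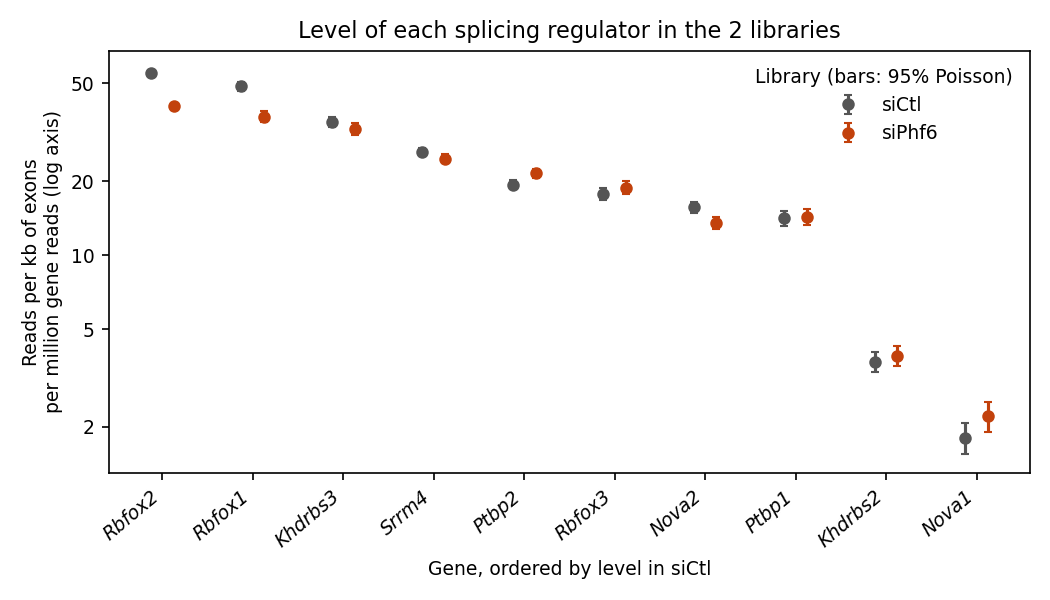
Level of each gene (vertical log axis, RPM per kilobase of exons) in the siCtl (grey) and siPhf6 (orange) libraries, with 95% Poisson intervals as bars. Rbfox2 (55.1 and 40.2) and Rbfox1 (48.5 and 36.6) are highest and show the widest gap between libraries among the abundant genes, while Nova1 is lowest at 1.81 and 2.21.

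Levels of Nova2 and Ptbp1 are less certain than the others. Of the exonic bases of Nova2, 31.7% also lie in exons of Gm26821 on the opposite strand, a gene with 0 reads in both libraries. Of those of Ptbp1, 20.7% lie in exons of opposite-strand genes, Plppr3 (2640 reads in siCtl and 2128 in siPhf6), E130317F20Rik (122 and 119) and Gm17134 (0 in both). The kit did not mark strand, so reads from such bases cannot be told apart by strand. A view added after the values were seen divided all counted reads of a gene by its unshared exonic length alone. It gives the level over unshared bases only if no read from shared bases was counted. By it Nova2 stood at 22.9 in siCtl, above Ptbp2 (19.3), and at 19.8 in siPhf6, below Ptbp2 (21.5). Ptbp1 stood at 17.8 in siCtl, just above Rbfox3 (17.7), and at 18.1 in siPhf6, below Rbfox3 (18.8). Nova1 (3.54%) and Srrm4 (0.784%) shared few exonic bases with another gene, and the other 6 genes shared none.

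Of the 10 regulators, Rbfox1 and Rbfox2 were lower in siPhf6 by more than the fold limit, Nova1 was higher by more than it, and 7 lay within it. The limit is a log2 ratio of 0.25 in either direction, a ratio of 1.19, with 1 read added to each count. Over all 10130 kept genes, 15.3% were lower and 15.9% were higher by this rule, so 2 lower and 1 higher of 10 are near the background. The median log2 ratio was -0.03 over the 10 regulators and 0.01 over all kept genes.

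**Figure D2:**
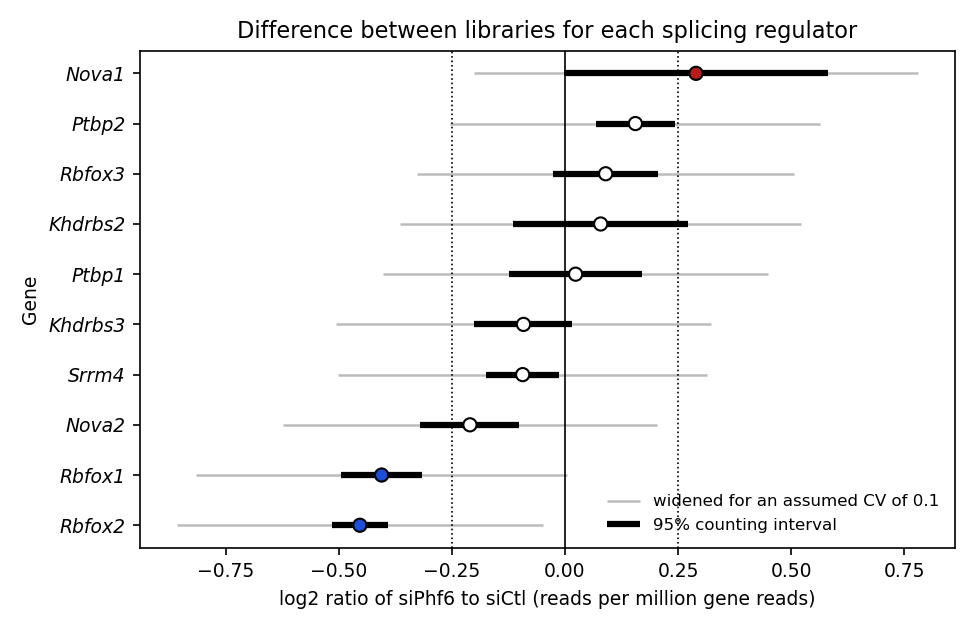
Each gene's siPhf6 to siCtl ratio (log2, horizontal axis), with 95% counting intervals as thick bars, thin bars for a wider interval that also assumes a coefficient of variation of 0.1 among cultures, and dotted lines at the limit of 0.25. Rbfox2 (-0.45) and Rbfox1 (-0.41) lie to the left of the limit (blue) with their whole counting intervals, and Nova1 (0.29, red) lies to the right with an interval that reaches 0.

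The Rbfox genes split, with Rbfox1 and Rbfox2 lower in siPhf6 and Rbfox3 within the limit. Rbfox2 (chromosome 15 of GRCm38, 77078990 to 77307004, minus strand), the form found in most cell types and already used by progenitors, had 5452 reads in the siCtl library and 3459 in the other. That is 449 and 328 RPM, or 73.0% of the control level, a log2 ratio of -0.45 (95% counting interval -0.52 to -0.39). Rbfox1 (chromosome 16, 5885355 to 7411526, plus strand), a regulator of neuronal excitability genes, had 2592 and 1700 reads, 213 and 161 RPM. Its log2 ratio was -0.41 (-0.49 to -0.32), or 75.5% of the control level. Both differences are several times the counting error at this depth. Rbfox3 (chromosome 11, 118489762 to 118911597, minus strand) had 1249 and 1155 reads, 103 and 109 RPM, with a log2 ratio of 0.09 whose interval of -0.03 to 0.21 includes 0.

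Within the family these differences do not depend on how the libraries are scaled. The ratio of Rbfox3 to Rbfox2 reads was 0.229 in siCtl and 0.334 in siPhf6, a difference of 0.54 on the log2 scale (95% exact conditional interval 0.41 to 0.68). That of Rbfox3 to Rbfox1 was 0.482 and 0.679, a log2 difference of 0.50 (0.35 to 0.64). Rbfox1 and Rbfox2 kept to one another, at 0.475 and 0.491, a log2 difference of 0.05 with an interval of -0.06 to 0.16. Rbfox3 thus made up 13.4% (exact binomial 95% interval 12.8 to 14.2) of all Rbfox reads in siCtl and 18.3% (17.3 to 19.3) in siPhf6, while the summed level of the 3 genes went from 765 to 598 RPM.

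**Figure D3:**
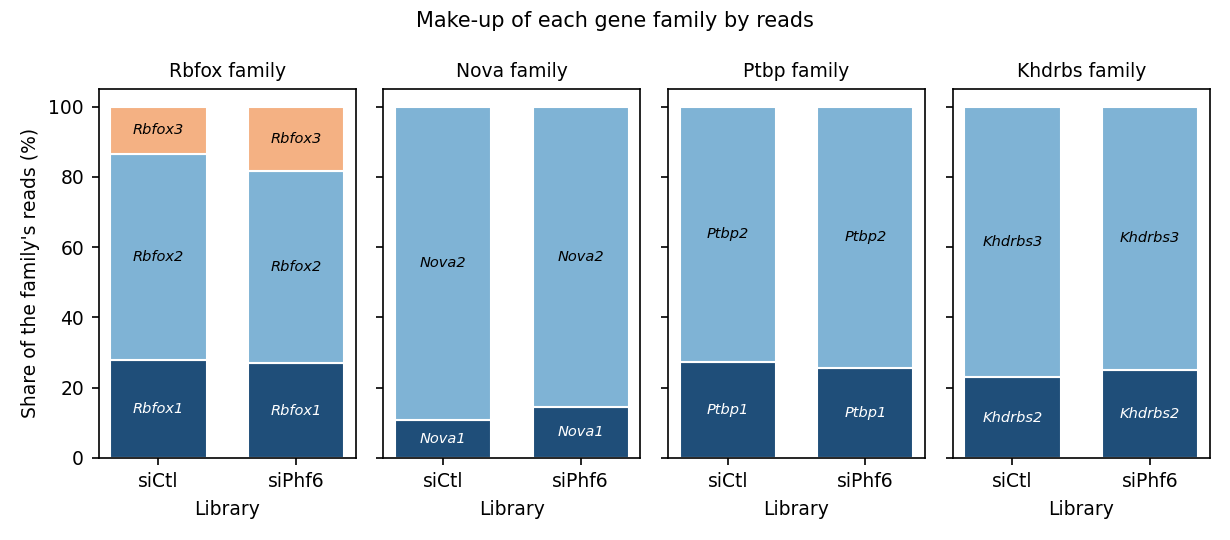
Share of each family's reads (vertical axis, percent) taken by its members in the siCtl and siPhf6 libraries, as stacked bars. The Rbfox3 segment goes from 13.4% to 18.3% and the Nova1 segment from 10.8% to 14.6%, while the Ptbp and Khdrbs bars differ by less than 3 percentage points.

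Rbfox1 and Rbfox2 are well covered and long, and 2 narrower backgrounds, added after their values were seen, bear on them. Among the 1522 kept genes whose reads over both libraries exceeded 4000, which include both, 10.4% were lower by the same rule. Srrm4 (5040 reads) and Ptbp2 (4233 reads) also exceed 4000 and were not lower. Among the 721 kept genes that span over 200 kb of genome, 25.1% were lower and the median log2 ratio was -0.05. Rbfox1 spans 1526 kb and Rbfox2 228 kb, and Rbfox3 (422 kb) and Khdrbs2 (486 kb), which were not lower, belong to this class too, so 2 of its 4 regulators were lower and none of the 6 shorter ones. The part of gene span in these differences was not tested. With a coefficient of variation of 0.1 assumed among cultures, the interval of Rbfox2 (-0.86 to -0.05) stayed below 0 and that of Rbfox1 (-0.82 to 0.0040) reached it. By that rule 6.24% of all kept genes were lower.

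**Figure D4:**
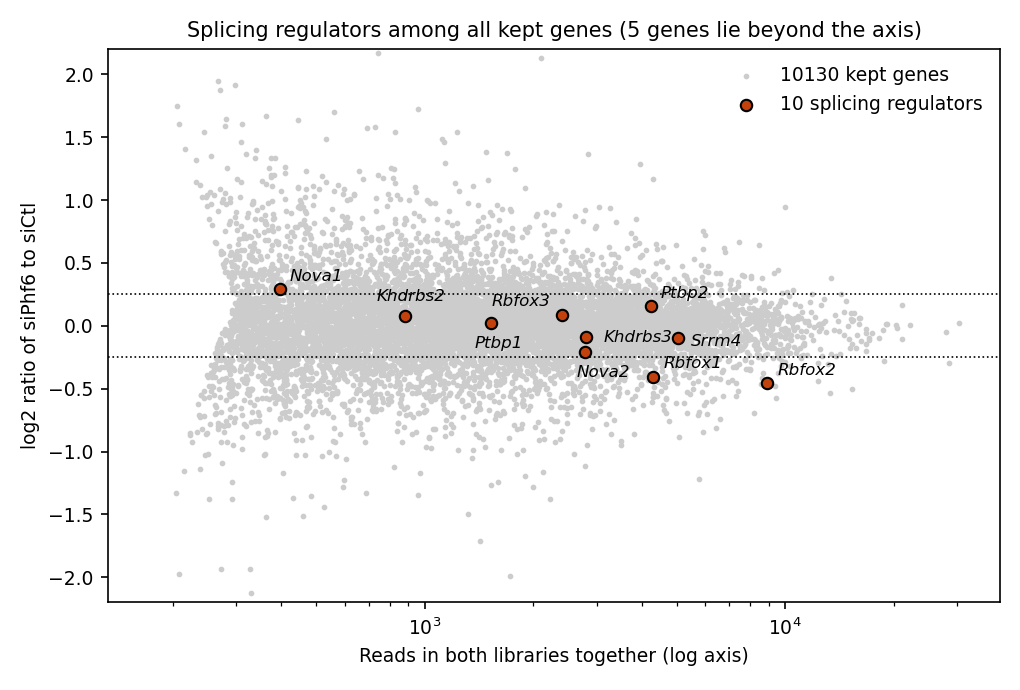
Each grey point is a kept gene, with its reads in both libraries together on the horizontal log axis and its log2 ratio of siPhf6 to siCtl on the vertical axis; orange points are the 10 splicing regulators and dotted lines the limit of 0.25. Rbfox2 (8911 reads) and Rbfox1 (4292 reads) lie below the lower line at a depth where the cloud of genes is narrow, and Nova1 (396 reads) lies just above the upper line where it is broad.

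Nova2 was slightly lower in siPhf6, and the difference in Nova1 was within counting error. The NOVA proteins bind clusters of short motifs, and Nova2, the cortical form, had 1590 reads in siCtl and 1194 in siPhf6 (chromosome 7, 18925888 to 18965319, plus strand). That is 131 and 113 RPM, a log2 ratio of -0.21 (-0.32 to -0.10), lower by more than counting error but within the fold limit. Nova1, better known from hindbrain and spinal cord, lies on chromosome 12 (46694517 to 46818929, minus strand) and was the least abundant of the 10. It had 192 and 204 reads, 15.8 and 19.3 RPM, and its log2 ratio of 0.29 has an interval of -0.0012 to 0.58, so at this depth it could not be told from no difference. The ratio of Nova1 to Nova2 reads was 0.121 in siCtl and 0.171 in siPhf6, a log2 difference of 0.50 (0.19 to 0.81).

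Ptbp1 differed by less than its counting error between the libraries, and Ptbp2 was slightly higher in siPhf6. Ptbp1 (chromosome 10, 79854427 to 79864771, plus strand), the repressor of neuronal exons, had 812 and 717 reads. Its level was 66.8 RPM in siCtl and 67.9 RPM in siPhf6, a log2 ratio of 0.02 (-0.12 to 0.17). Ptbp2 (chromosome 3, 119718742 to 119784466, minus strand), the form of young neurons, had 2151 and 2082 reads, 177 and 197 RPM, with a log2 ratio of 0.16 (0.07 to 0.24), within the fold limit. Ptbp2 outnumbered Ptbp1 by 2.65 to 1 in reads in siCtl and by 2.90 to 1 in siPhf6, a log2 difference of 0.13 whose interval of -0.04 to 0.30 includes 0. Dlg4 (PSD-95) and the GABA-B receptor gene Gabbr1, synaptic genes in which PTBP proteins are known to cause exon skipping that leads to decay, had log2 ratios of 0.16 (0.09 to 0.23) and 0.11 (0.05 to 0.16).

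Srrm4 and its partner in regulation, Rest, were within the limit. SRRM4 makes neuronal microexons and also splices Rest transcripts to a form that no longer represses neuronal genes, while REST represses Srrm4 in non-neuronal cells. Srrm4 (chromosome 5, 116439275 to 116591817, minus strand) had 2778 and 2262 reads, 229 and 214 RPM, with a log2 ratio of -0.09 (-0.17 to -0.01). Rest had 256 and 246 reads and a log2 ratio of 0.15 (-0.11 to 0.40). Of REST and its 3 listed corepressors, 3 were kept, none was lower and Rcor1, a scaffold of the REST corepressor complex, was higher at 0.30 (0.16 to 0.45). Over all kept genes, 15.9% were higher and 15.3% lower. The antisense transcript Srrm4os, with 283 and 193 reads, shares 68 exonic bases with Srrm4.

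Both Khdrbs genes lay within the limit. SLM2, encoded by Khdrbs3, and SLM1 from Khdrbs2 are best known for exon skipping in transcripts of presynaptic adhesion proteins. Khdrbs3 (chromosome 15, 68928420 to 69101211, plus strand) had 1548 and 1262 reads, 127 and 119 RPM, with a log2 ratio of -0.09 (-0.20 to 0.02). Khdrbs2 (chromosome 1, 32172714 to 32658568, plus strand) had 461 and 423 reads, 37.9 and 40.1 RPM, with a log2 ratio of 0.08 (-0.12 to 0.27). Their reads stood at 0.298 Khdrbs2 to 1 Khdrbs3 in siCtl and 0.335 in siPhf6, a log2 difference of 0.17 (-0.05 to 0.39). By counting error alone, the interval of Khdrbs2 reaches 0.27 and that of Khdrbs3 falls short of the fold limit. With a coefficient of variation of 0.1 assumed among cultures, both intervals pass the limit on either side. They are then -0.36 to 0.52 for Khdrbs2 and -0.51 to 0.32 for Khdrbs3.

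Transcripts with exons that these proteins are known to splice were mostly within the fold limit as whole genes. Of 13 such genes, all kept, 2 were lower, a share near the 15.3% of all kept genes, none was higher, and the median log2 ratio was -0.09. Ank3 (ankyrin-G, which organises the axon initial segment) was lower at -0.28 (-0.32 to -0.24), and Flna, an actin cross-linker, at -0.29 (-0.35 to -0.24). Nrxn2 (-0.09) and Nrxn3 (-0.17), which encode presynaptic adhesion proteins, and Dab1 of the reelin pathway (-0.03) lay within it. Whether the use of any exon in them differed was not analysed here.

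Most other splicing genes lay within the limit. Of 10 further neuronal regulators, all kept, 1 was higher, Elavl4 (HuD) at 0.34 (0.23 to 0.44), none was lower, and Celf2, the one with most reads, stood at 0.04 (median of the list 0.04). Of 14 kept broadly expressed relatives, 4 were higher and none lower, with a median of -0.01. They were Ptbp3, the non-neuronal relative of Ptbp1, at 0.73 (0.53 to 0.94, 27.1 to 45.1 RPM), Msi1, a progenitor protein, at 0.49 (0.30 to 0.69), Mbnl1 at 0.44 (0.33 to 0.55) and Celf1 at 0.40 (0.33 to 0.46). These may be set against the 15.9% of all kept genes that were higher. The counting interval of Ptbp3 lay above those of Ptbp1 and Ptbp2.

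**Figure D5:**
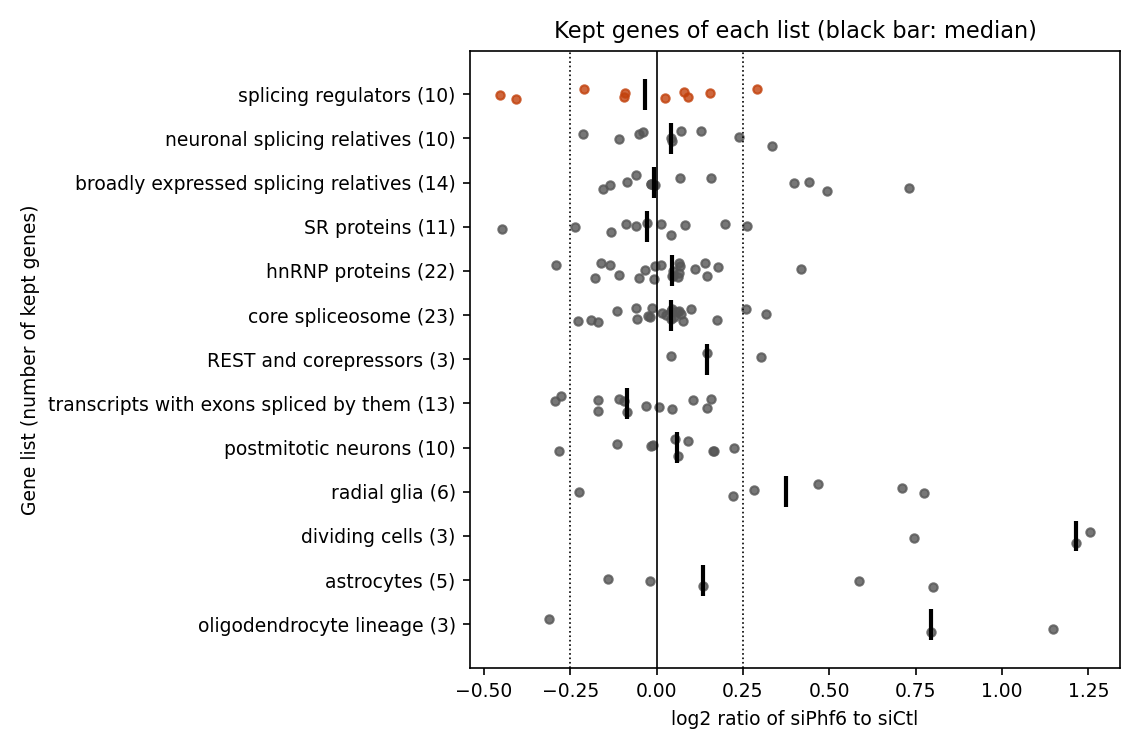
Ratio of siPhf6 to siCtl (log2, horizontal axis) of the kept genes of each list (rows), with black bars at the medians and dotted lines at the limit of 0.25. The regulators (orange, top row) centre on -0.03, the core spliceosome, SR and hnRNP lists lie mostly between the dotted lines, and the dividing-cell and radial glia lists lie mostly to the right. The 3 dividing-cell genes shown passed the filter only through siPhf6.

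The general splicing machinery had few genes past the limit, set against 15.9% higher and 15.3% lower over all kept genes. Of 23 kept core spliceosome genes 2 were higher (Snrpe 0.32 and Snrpd2 0.26, with intervals of 0.0082 to 0.63 and 0.0018 to 0.52) and none was lower, with a median of 0.04 and Prpf8, the most abundant, at 0.06. Of 22 kept hnRNP genes, general RNA-binding proteins, Hnrnpa3 was higher (0.42, 0.18 to 0.66) and Hnrnpul1 lower (-0.29, -0.39 to -0.20), with a median of 0.05. Of 11 SR protein genes, which promote exon inclusion, Srsf9 was higher (0.26, 0.08 to 0.44) and Srsf4 lower (-0.45, -0.67 to -0.24), with a median of -0.03.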

How the data were processed

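Libraries for mRNA-seq came from the TruSeq RNA v2 kit, with no strand information. The deposited values are raw counts per gene from HTSeq, with genes as in GENCODE M9. They rest on HISAT2 alignments to mm10 from which samtools had taken out duplicates. Tool versions are not given in the sources used here. Reads in no gene (25.3% in siCtl and 24.1% in siPhf6) and ambiguous reads (1.99% and 2.04%) were left out of the totals.

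From the raw counts, genes with at least 150 reads in 1 library were kept. Log2 ratios of siPhf6 to siCtl used 1 added read and the total of gene reads, with exact Clopper-Pearson 95% intervals, Poisson intervals for levels, and conditional intervals of the odds ratio for pairs of genes (scipy 1.17.1). Reads are not independent molecules, so intervals cover counting error only. No p-value between the conditions is given, since each group has 1 library. An exact binomial test of reads served only as an alternative rule for being past the limit. That test treats reads as replicates and does not cover spread between cultures. The study's methods give n = 3 per group, and the sources used here do not say whether the library pools them. A gene was counted as higher or lower past a log2 ratio of 0.25. The calculation was tested on simulated data.

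Positions, exonic lengths and sequences were taken from the M21 release of GENCODE (GRCm38, equal to mm10), matched by gene ID without version, and 10114 of 10130 kept genes matched. The 10 regulators and all gene lists were chosen with earlier results of these data known, and the ratios of Rbfox3 to Rbfox1, Rbfox1 to Rbfox2, Nova1 to Nova2 and Khdrbs2 to Khdrbs3 were added after values were seen. The rule named the 10 regulators, Phf6 and, of each list, up to 4 genes past the limit and the gene with most reads. Dlg4, Gabbr1, Rest, Nrxn2, Nrxn3, Dab1, Sox2, Aldoc, Gja1, Gfap, Gadd45g, Neurog2, Eomes, Gad2, Pdgfrb and the markers at 0 reads lie outside that rule and were named with values known. Values of some single list genes are not reported here. Alternatives covered scaling (edgeR 4.0.16 TMM, DESeq2 1.42.0 size factors, a total without the 50 most abundant and mitochondrial genes), the filter, the added read, a length trend (lowess) and the rule for being past the limit.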

Additional observations from a re-analysis of the deposited data

How the results depend on the processing

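The log2 ratios of all 10 regulators stayed within their counting intervals under every scaling, added read and length setting tried, from -0.51 to -0.43 for Rbfox2, -0.46 to -0.41 for Rbfox1 and 0.24 to 0.32 for Nova1. Counts of regulators past the limit changed as follows. The 1 higher regulator, Nova1, was lost (count 0) with DESeq2 size factors, with a limit of 0.5, with a counting interval on one side of 0 required, with a binomial FDR under 0.01 required, and with the interval widened for a coefficient of variation of 0.1. The 2 lower ones became 0 at a limit of 0.5, and 1, Rbfox2, with the widened interval. With DESeq2 size factors Nova2, at -0.26, also passed the lower limit, which made 3 lower regulators, and of all kept genes past the limit 37.6% were higher, against 51.0% by total reads (1241 higher and 2062 lower, against 1613 and 1550). Over all kept genes, 562 were higher and 499 lower at a limit of 0.5, and 665 and 632 with the widened interval. The median over all kept genes moved by at most 0.05 under any scaling. The median of the regulators ranged from -0.09 to -0.02, and the within-family ratios moved less than their counting error. No paired analysis was possible because each group has 1 library. With 1 library per group no replicate could be left out, and depth limits Nova1 and Khdrbs2 most, with 396 and 884 reads in both libraries together.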

Other observations

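Markers of other cell types that such cultures can hold gave further values beside the splicing regulators, and their part in the differences was not tested. Of the 7 astrocyte markers, 5 were kept, and Slc1a2, a glutamate transporter, was higher in siPhf6 by 0.59 on the log2 scale (counting interval 0.52 to 0.66), as was the water channel Aqp4 at 0.80 (0.44 to 1.18), while Aldoc (0.13), Gja1 (-0.02) and Gfap (-0.14) lay within the limit. Of all kept genes, 15.9% were higher and 15.3% lower by the same rule. Of the 7 markers of the oligodendrocyte lineage, 3 were kept, and the lineage factors Olig2 (1.15) and Olig1 (0.80) were higher while the myelin gene Mbp was lower (-0.31). Olig2 (79 reads in siCtl and 153 in siPhf6) and Aqp4 (102 and 155) passed the filter only through siPhf6, so the filter favoured their being counted as higher. Of the 6 intermediate progenitor markers, 3 were kept and Btg2 (0.51) and Insm1 (0.35) were higher, with Gadd45g at 0.04. Of those not kept, Neurog2 had 48 reads in siCtl and 22 in siPhf6, Eomes had 9 and 20, and Neurog1 had 0 in both libraries. Of the 6 markers of GABAergic neurons, 4 were kept, and the interneuron factors Lhx6 (-0.80, -1.09 to -0.52) and Dlx1 (-0.58, -0.81 to -0.36) were lower. Gad1 (0.10) and Gad2 (0.19, 0.05 to 0.33) lay within the limit. The 6 markers summed to 279 RPM in siCtl and 275 RPM in siPhf6.

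Microglial transcripts were scarce. None of the 7 microglial markers was kept, their sum was 4.28 RPM in siCtl and 5.40 RPM in siPhf6, and C1qa had 0 reads in both libraries. The 9 vascular and meningeal markers summed to 63.4 and 68.5 RPM, with 0 reads of the endothelial gene Cldn5 in both libraries. Of the 3 kept, Col1a1 was higher (1.75), the pericyte gene Rgs5 was lower (-0.33) and Pdgfrb stood at 0.04. Col1a1 had 52 reads in siCtl and 154 in siPhf6, and passed the filter only through siPhf6. Over all kept genes the shares were 15.9% higher and 15.3% lower.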
